A study of Mus musculus with 15 samples.

Results

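The 10 genes described here encode pancreatic-type digestive enzymes and their helper protein, followed in mouse stomach from E12.5 to W8. They were taken by gene symbol (Clps, Pla2g1b, Pnliprp1, Pnliprp2, Cel, Amy2a5, Try4, Ctrb1, Cela2a and Prss2) from the 44788 symbols of the deposited tables, with the entries of a symbol summed. The choice was made with their values known, so their levels and differences are a description and carry no test. RNA was sequenced from whole stomachs of C57BL/6 mice with 1 transcriptome for each of 15 time points, and the values are FPKM, which scale the fragments of a gene by its length and by the size of the library and so allow levels to be compared between genes per length. The time points fall into 3 stages by their age label: 7 daily fetal time points (E12.5 to E18.5), 5 from birth to late suckling (D1, D3, D5, W1 and W2) and 3 from weaning on (W3, W6 and W8). No treatment or genetic change separates the groups. According to the study's methods, several stomachs were combined at the fetal ages before E18.5 and the animals of W3, W6 and W8 were male, while sex was not distinguished earlier, so that stage and sex cannot be told apart in the last stage. The methods also name liver as the tissue of the RNA, whereas the labels name stomach. Gastric markers were abundant in the libraries, with Tff1 (a trefoil peptide of surface mucous cells) at 65565 FPKM and Pgc (progastricsin) at 151321 FPKM at W8.

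Acinar cells of the pancreas make most of the enzymes that digest food in the small intestine. Fat is split there by lipases, which need colipase to stay on fat droplets coated with bile salts, by phospholipases that cut phospholipids and by carboxyl ester lipase, while starch is cut by amylase. Proteins are cut by trypsins, chymotrypsins and elastases, which acinar cells release as inactive zymogens, and the acinar-specific complex PTF1, which contains Ptf1a, binds a paired motif made of an E-box and a TC-box in many of their promoters. The chief cells of the stomach are also zymogen-secreting cells, with pepsinogens as their main product.

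The members separated into a group that rose through suckling to weaning and a group that was highest at a single time point. Clps and Pla2g1b were the most abundant by far, and at W8 they ranked 2 and 5 among all symbols. With only the first of the 2 entries of Clps, which may hold the same reads, Clps ranked 5 and Pla2g1b 4. Pnliprp1, Pnliprp2 and Try4 were also highest from W3 on, at lower levels. In these 5 of the 10 members each value from W3 to W8 lay above each earlier value, which was the case for 4.17% of the 16902 genes that reached 1 FPKM at any time point. Since the members were chosen on these values, nothing is read from that count. Ctrb1, Cela2a and Prss2 were highest at D3, and Cel and Amy2a5 shared features of both groups. In whole stomach, fewer cells of a type and less RNA per cell cannot be told apart.

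**Figure D1:**
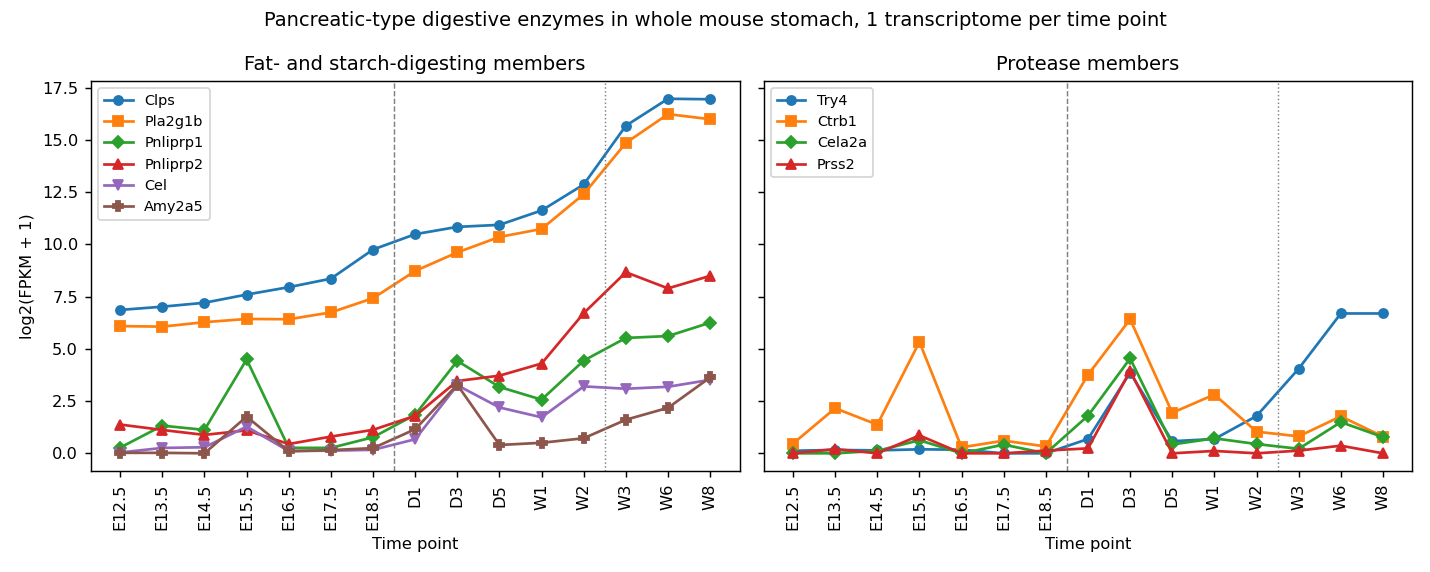
log2(FPKM + 1) of the 6 fat- and starch-digesting members (left) and of the 4 protease members (right) at the 15 time points, 1 transcriptome each. The dashed line marks birth and the dotted line the step from W2 to W3. Clps and Pla2g1b lie above the other members at each time point, and Try4 is the only protease member that stays high at W6 and W8.

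Promoter sequences show what members of 1 enzyme family with different time courses have in common upstream. The window runs from 250 bases before to 50 bases after the annotated start (RefSeq, GRCm38.p6), and 9 of the 10 members matched an entry. The search covered 4 motifs, the E-boxes CACCTG and CAGCTG and the TC-box TTTCCCA on both strands, and the TATA-box TATAAA on the gene's strand only. Capitals mark these matches in the sequences, which are written 5′ to 3′ on the gene's strand. The trypsinogens Try4 (chr6:41302022-41302321, plus strand) and Prss2 (chr6:41521526-41521825, plus strand) are shown because they are close relatives with different courses, Cela2a (chr4:141825956-141826255, minus strand) because it shared the D3 course of Prss2, and Pla2g1b (chr5:115465892-115466191, plus strand) as an abundant member that rose from birth to W6.
Try4: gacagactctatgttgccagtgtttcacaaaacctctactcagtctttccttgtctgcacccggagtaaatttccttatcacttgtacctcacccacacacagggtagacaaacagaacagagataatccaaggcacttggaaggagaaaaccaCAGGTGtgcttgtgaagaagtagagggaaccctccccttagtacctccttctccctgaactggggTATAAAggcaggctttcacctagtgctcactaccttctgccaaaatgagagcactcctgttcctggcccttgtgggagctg
Prss2: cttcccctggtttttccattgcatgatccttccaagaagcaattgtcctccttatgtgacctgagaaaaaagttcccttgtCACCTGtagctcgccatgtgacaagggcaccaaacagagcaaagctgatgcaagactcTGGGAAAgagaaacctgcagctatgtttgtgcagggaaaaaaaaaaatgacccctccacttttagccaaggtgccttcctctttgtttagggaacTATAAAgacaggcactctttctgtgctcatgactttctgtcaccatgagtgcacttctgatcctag
Cela2a: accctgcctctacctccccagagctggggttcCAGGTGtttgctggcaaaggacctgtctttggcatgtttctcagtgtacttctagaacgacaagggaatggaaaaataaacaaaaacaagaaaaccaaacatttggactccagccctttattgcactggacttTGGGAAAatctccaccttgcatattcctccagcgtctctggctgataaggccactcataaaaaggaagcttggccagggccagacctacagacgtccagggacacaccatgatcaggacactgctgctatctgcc
Pla2g1b: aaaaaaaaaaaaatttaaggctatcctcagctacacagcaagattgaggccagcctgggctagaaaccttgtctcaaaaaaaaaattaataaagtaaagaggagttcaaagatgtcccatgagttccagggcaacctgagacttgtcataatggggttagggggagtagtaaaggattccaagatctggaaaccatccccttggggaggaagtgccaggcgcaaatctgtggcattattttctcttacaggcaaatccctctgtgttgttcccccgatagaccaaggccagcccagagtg

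Among the 9 promoter windows, CACCTG occurred in 5 (Pnliprp2, Cel, Try4, Cela2a and Prss2), against 20.2% of all 32817 promoters in the reference. TTTCCCA occurred in 4 windows (Cel, Ctrb1, Cela2a and Prss2), against 8.06% of all promoters. CACCTG and TTTCCCA were both present in the windows of Cel, Cela2a and Prss2, against 1.61% of all promoters. Ctrb1 had TTTCCCA with the other E-box, CAGCTG, close before it (CAGCTGtcctTTTCCCA). In Cel, Cela2a and Prss2 the E-box and the TC-box lay further apart than in Ctrb1. The share of all promoters with CAGCTG and TTTCCCA was not counted, and the spacing of the motifs was not tested. Ctrb1, Cela2a and Prss2, the 3 members with their highest level at D3, were among the 4 with TTTCCCA. Cel had TTTCCCA too, with its highest level at W8. Try4 had CACCTG without TTTCCCA, and Amy2a5 had neither. Both were nevertheless higher at D3 (13.6 and 8.71 FPKM) than at D1 and D5. CAGCTG was found in the windows of Amy2a5 and Ctrb1 (16.3% of all promoters) and TATAAA in those of Amy2a5, Try4 and Prss2 (8.32%). The windows of Pla2g1b and Pnliprp1 held none of the 4 motifs. For Pla2g1b the window follows the RefSeq start at 115466142, whereas the quantified entry starts further upstream, at 115465116. That window thus lies inside the quantified entry, and the sequence before the start of the entry was not searched. A match of letters is a description of the window and shows no binding.

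Clps encodes colipase, the cofactor that anchors pancreatic lipase at the fat surface. It lay between 115 and 863 FPKM at the fetal time points with a median of 193. After birth it measured 1437 at D1, 1832 at D3, 1959 at D5, 3161 at W1 and 7482 at W2. From weaning on it measured 52594 at W3, 128680 at W6 and 126587 at W8. The level was higher at each time point than at the one before except at W8, and the stages did not overlap. The step from W2 to W3 was 7.03-fold. On the scale log2(FPKM + 1), the mean of the last stage was 5.18 above that of D1 to W2 (16.54 ± 0.74, SD, n = 3 time points, against 11.35 ± 0.94, n = 5), and that of D1 to W2 was 3.53 above the fetal mean (7.82 ± 1.003, n = 7). The tables hold 2 entries for Clps, at chr17:28558214-28560714 (GRCm38) and on an unplaced scaffold, with nearly equal values (63564 and 63023 FPKM at W8). Whether the same reads were counted in both was not tested, and with the first entry alone the levels are about as high as those of Pla2g1b.

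Pla2g1b (chr5:115465116-115474717) encodes the secreted phospholipase A2 of pancreatic juice. Its fetal values ran from 65.9 to 171 FPKM with a median of 84.6. It then measured 423 at D1, 785 at D3, 1312 at D5, 1710 at W1 and 5435 at W2. At W3 it reached 29727, at W6 77308 and at W8 65295. The course followed that of Clps, with a 5.47-fold step from W2 to W3 and differences between the stage means of 5.33 and 3.88 on the log2 scale (15.70 ± 0.74, n = 3, against 10.37 ± 1.37, n = 5, and 6.49 ± 0.47, n = 7, SD over time points). The ratio of Clps to Pla2g1b was between 1.38 at W2 and 5.05 at E18.5, and between 0.689 and 2.53 when only the first entry of Clps was used. Colipase thus led the phospholipase most around birth, where Clps rose from 328 at E17.5 to 863 at E18.5 while Pla2g1b went from 106 to 171.

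Together, Clps and Pla2g1b held 0.0237% of the summed FPKM at E12.5, 1.34% at W2, 7.89% at W3, 15.3% at W6 and 17.1% at W8. These shares use the sum of both Clps entries, which may hold the same reads. They would be lower with the first entry alone, which was at 63564 FPKM at W8 against a sum of 126587. All 10 members together held 17.2% at W8, so nearly all of the digestive enzyme RNA of this set belonged to the colipase and phospholipase genes.

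As a fraction of the late level, the fetal level of these genes was small and close to that of several other genes of the late stomach. Clps at E12.5 was 0.0905% of its mean at W6 and W8, and Pla2g1b was 0.0941%. Of the 103 genes with a mean of at least 1000 FPKM at W6 and W8, 0 lay under 0.05% at E12.5, and 8 lay between 0.0778% and 0.140%. These 8 were Clps, Pla2g1b, Chia1, Pgc, Gkn2, Atp4b, Gkn1 and Psca, all highly expressed in the late stomach. Of 1383 genes with a late mean between 50 and 1000 FPKM, 5 lay under 0.05% at E12.5. Chia1, an acidic chitinase of chief cells, stayed between 0.0767% and 0.0881% at all fetal time points, while Clps reached 0.257% at E17.5 and 0.676% at E18.5 and Pla2g1b 0.149% and 0.240%. Whether reads of other libraries contribute to such values was not tested. The time at which Clps and Pla2g1b first appeared can therefore not be read from a limit of 1 FPKM, which both passed at E12.5, and only the rise above the earliest level is described.

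**Figure D2:**
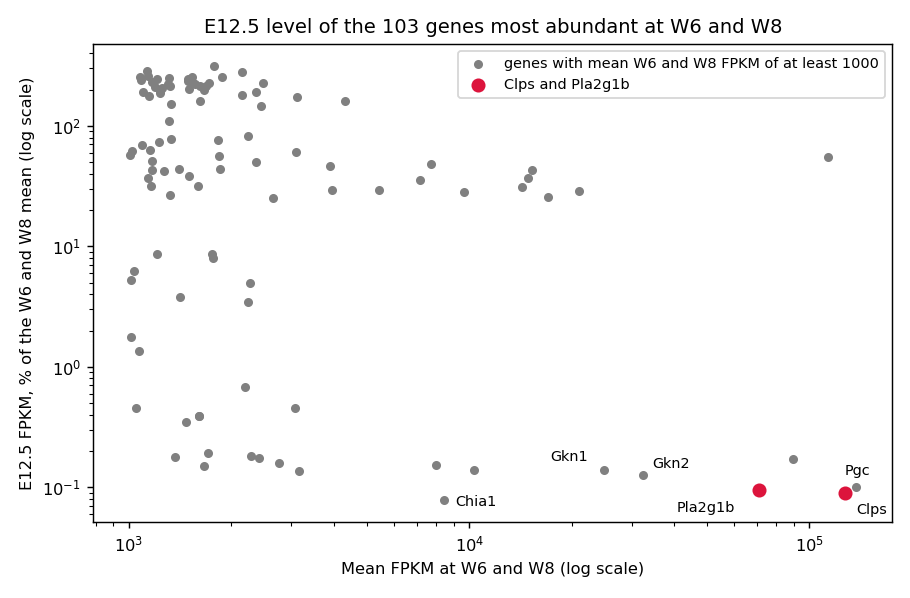
E12.5 FPKM as a percentage of the mean at W6 and W8 (log scale) against that mean (log scale), for the 103 genes with a late mean of at least 1000 FPKM, 1 point per gene. Clps and Pla2g1b (red) lie at 0.0905% and 0.0941%, beside Pgc at 0.0999% and Chia1 at 0.0778%, at the lower edge of the points.

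Pnliprp2 (chr19:58759723-58777534) encodes a lipase related to pancreatic lipase that also cuts galactolipids and is known from the suckling period in the pancreas. Its fetal values were between 0.362 and 1.60 FPKM with a median of 1.15. After birth it measured 2.47 at D1, 10.02 at D3, 12.2 at D5, 18.7 at W1 and 104 at W2. It then measured 406 at W3, 237 at W6 and 360 at W8. Each value after birth lay above each fetal value, and each value from W3 on lay above those from D1 to W2. The stage means differed by 4.36 and 3.02 on the log2 scale (8.35 ± 0.41, n = 3, 3.996 ± 1.78, n = 5, and 0.98 ± 0.30, n = 7, SD). Unlike Clps and Pla2g1b, Pnliprp2 was highest at W3 and lower at W6, where the ratio to W3 was 0.585.

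Pnliprp1 (chr19:58728887-58744169), the neighbouring gene, encodes a related protein that lacks clear lipase activity. It was between 0.198 and 1.503 FPKM at 6 fetal time points but 21.6 at E15.5 (the fetal median was 0.705). It measured 2.60 at D1, 20.5 at D3, 8.05 at D5, 4.93 at W1 and 20.7 at W2. From weaning on it measured 44.99 at W3, 48.0 at W6 and 75.4 at W8. The gene therefore had a single high fetal value, a high value at D3 and a later rise, and its fetal and D1 to W2 values overlapped. The stage means differed by 2.51 and 2.08 on the log2 scale (5.80 ± 0.40, 3.29 ± 1.14 and 1.22 ± 1.51, SD, n = 3, 5 and 7). Pnliprp1 and Pnliprp2 share 64.0% of their coding sequence, and the ratio of Pnliprp2 to Pnliprp1 was 7.62 at E12.5, 0.0531 at E15.5, 3.74 at E17.5, 0.489 at D3, 3.79 at W1 and 9.02 at W3, with the low ratios at the time points at which Pnliprp1 was high.

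Cel (chr2:28555813-28563362) encodes the carboxyl ester lipase, also called bile salt-stimulated lipase. It lay between 0.0273 and 1.43 FPKM at the fetal time points with a median of 0.123. It measured 0.595 at D1, 8.57 at D3, 3.58 at D5, 2.30 at W1 and 8.22 at W2. It then measured 7.52 at W3, 8.10 at W6 and 10.5 at W8. The W3 value was 0.916 of that at W2, so that Cel showed no step at weaning, and its stages overlapped. The differences between stage means were 1.05 and 1.89 on the log2 scale (3.27 ± 0.22, 2.21 ± 1.08 and 0.32 ± 0.43, SD, n = 3, 5 and 7).

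Amy2a5 (chr3:113249178-113258699) encodes a pancreatic amylase, the starch-digesting member. Fetal values ran from 0 to 2.38 FPKM with a median of 0.0728. It measured 1.22 at D1, 8.71 at D3, 0.319 at D5, 0.419 at W1 and 0.649 at W2, and then 2.05 at W3, 3.53 at W6 and 11.4 at W8. E15.5 and D3 stood above their neighbours, and a separate rise led to the highest value at W8. The stage means differed by 1.26 and 0.88 on the log2 scale (2.47 ± 1.04, 1.21 ± 1.19 and 0.33 ± 0.64, SD, n = 3, 5 and 7). The coding sequence of Amy2a5 is 100% identical to those of Amy2a2, Amy2a3 and Amy2a4 in the reference, so the level of this single copy is uncertain.

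Try4 (chr6:41302272-41305533) encodes a trypsinogen. It was between 0 and 0.142 FPKM at the fetal time points with a median of 0.103. It measured 0.609 at D1, 13.6 at D3, 0.495 at D5, 0.608 at W1 and 2.45 at W2. It rose to 15.6 at W3, 102.6 at W6 and 102.6 at W8. Each value after birth lay above each fetal value, D3 stood above W2, and the 3 last values were the highest. The step from W2 to W3 was 6.36-fold and that from W3 to W6 6.58-fold, and the stage means differed by 4.29 and 1.41 on the log2 scale (5.81 ± 1.53, 1.52 ± 1.40 and 0.11 ± 0.08, SD, n = 3, 5 and 7).

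Prss2 (chr6:41521776-41525079) encodes another trypsinogen of the same gene cluster. It was at 0 to 0.811 FPKM at the fetal time points with a median of 0, and at 0.178 at D1, 14.4 at D3, 0 at D5, 0.0826 at W1 and 0 at W2. At W3, W6 and W8 it measured 0.0932, 0.289 and 0. D3 was the 1 time point at which Prss2 reached 1 FPKM, with deposited confidence bounds of 12.1 and 16.7. The coding sequences of Try4 and Prss2 are 91.7% identical and that of Try4 is 97.4% identical to Try5, so fragments could be shared between these genes. At W6 and W8, where Try4 was at 102.6, Prss2 was at 0.289 and 0 and Try5 at 4.80 and 5.65.

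Ctrb1 (chr8:111686510-111691010) encodes chymotrypsinogen B, among the most abundant products of acinar cells. Its fetal values ran from 0.219 to 39.3 FPKM with a median of 0.522, and the highest of them was at E15.5. It measured 12.6 at D1, 84.5 at D3, 2.83 at D5, 6.04 at W1 and 1.05 at W2, and then 0.757 at W3, 2.41 at W6 and 0.744 at W8. Ctrb1 was high at D3 and E15.5, where the confidence bounds were 79.5 to 89.6 and 35.7 to 42.9, and low from W2 on. The mean of the last stage was below that of D1 to W2, with a difference of -2.07 on the log2 scale (1.13 ± 0.56, 3.19 ± 2.07 and 1.51 ± 1.82, SD, n = 3, 5 and 7). Without D3 the difference was -1.26, and without D1 and D3 it was -0.80.

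Cela2a (chr4:141814963-141826003) encodes an elastase. It was at 0 to 0.545 FPKM at the fetal time points with a median of 0. It measured 2.48 at D1, 22.3 at D3, 0.341 at D5, 0.645 at W1 and 0.361 at W2, and 0.162 at W3, 1.82 at W6 and 0.715 at W8. The D3 value was the highest, with confidence bounds of 19.6 and 25.0. Unlike in Prss2 it did not stand alone, since D1 (2.48) was also above all remaining time points. The differences between stage means were -0.76 and 1.42 on the log2 scale for Cela2a and -0.69 and 0.69 for Prss2, and each was smaller than the SD over the time points from D1 to W2 (1.75 and 1.73). Without D1 and D3 the difference between the last stages was 0.30 for Cela2a and 0.13 for Prss2.

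The share of Try4 in the summed FPKM of the 4 protease members showed the change of the dominant gene. It was 0.349% at E15.5 and 10.1% at D3, where Ctrb1 led, and 63.4% at W2, 93.9% at W3, 95.8% at W6 and 98.6% at W8. Without Try4, the protease members summed to 121 FPKM at D3 and to 4.52 or less from W2 on. Without Clps and Pla2g1b, the fat- and starch-digesting members summed to 47.8 FPKM at D3 and to between 297 and 461 from W3 on.

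Taking 1 FPKM as a limit, the first time points above it were E12.5 for Pnliprp2, E13.5 for Pnliprp1 and Ctrb1, E15.5 for Cel and Amy2a5, D1 for Cela2a, and D3 for Try4 and Prss2. The time points from which all later values stayed at or above the limit were E18.5 for Pnliprp2, D1 for Pnliprp1, D3 for Cel, W2 for Try4 and W3 for Amy2a5. Ctrb1, Cela2a and Prss2 had no such time point. Among the members with lasting values, the fat-digesting genes were thus continuously above the limit earlier than the trypsinogen and the amylase.

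The D3 library stood apart from D1 and D5 in acinar genes. A D3 value at least 4 times both D1 and D5 on the scale FPKM + 1, a limit set after the values were seen, was found for 5 members, Amy2a5, Try4, Ctrb1, Cela2a and Prss2. It was found for 18 of the 16902 genes, which is 0.106%. On the FPKM scale, D3 was 80.7 times the higher neighbour in Prss2, 22.3 times in Try4, 9.0 times in Cela2a, 7.11 times in Amy2a5 and 6.73 times in Ctrb1. It was 2.55 times in Pnliprp1 and 2.39 times in Cel, and in Pnliprp2, Clps and Pla2g1b D3 was not above both neighbours (ratios of 0.825, 0.935 and 0.598). All 4 protease members had the peak, and 1 of the 6 fat- and starch-digesting members had it.

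A smaller set of members was high at E15.5. By the same limit against E14.5 and E16.5, 9 of the 16902 genes (0.0532%) had a peak, and Ctrb1 and Pnliprp1 were among them. Ctrb1 was at 1.59, 39.3 and 0.219 FPKM at E14.5, E15.5 and E16.5, and Pnliprp1 at 1.18, 21.6 and 0.199. Amy2a5 (2.38), Cel (1.43), Prss2 (0.811) and Cela2a (0.545) also had their highest fetal value at E15.5, as did Try4, though at 0.142 FPKM against 0.128 at E16.5. Cpa1, a carboxypeptidase of acinar cells, had its highest value of all time points at E15.5, at 6.40 FPKM.

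**Figure D3:**
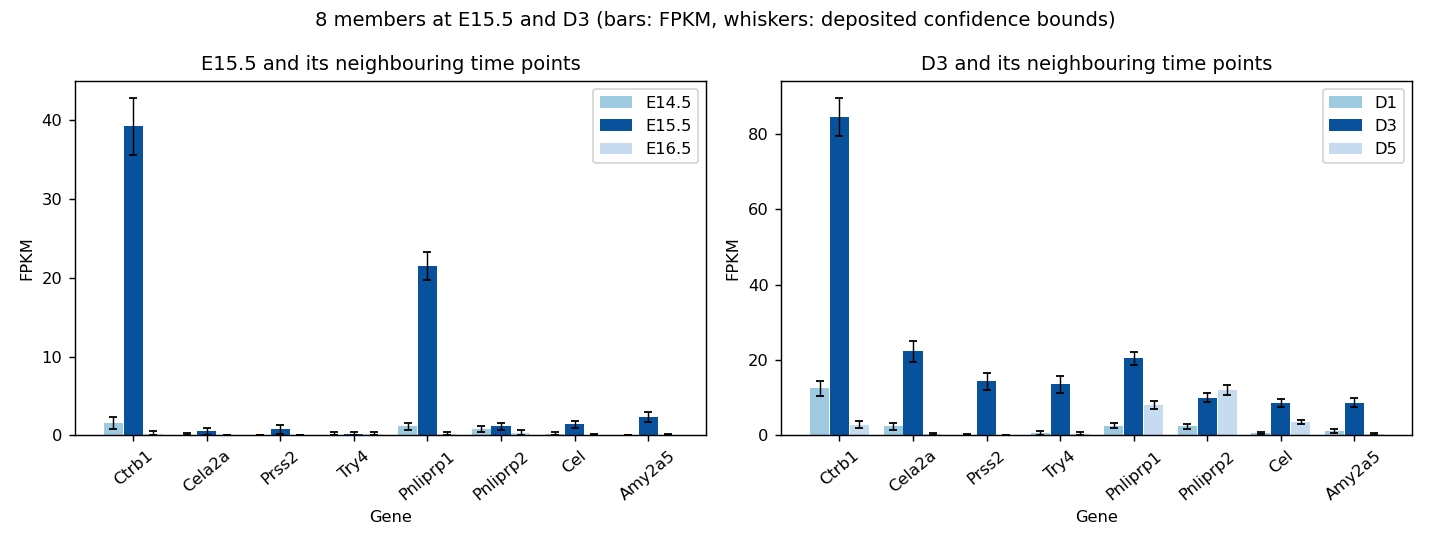
FPKM of the 8 members other than Clps and Pla2g1b at E15.5 and at D3, each beside the time points before and after. Whiskers are the deposited confidence bounds, which do not cover the spread between animals. At D3 Ctrb1 reached 84.5 and Cela2a 22.3, and at E15.5 Ctrb1 reached 39.3 and Pnliprp1 21.6, while Try4 was high at D3 and not at E15.5.

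Other secreted products of acinar cells were set beside the members. Of 29 genes in the list, 27 were in the tables and 22 passed 1 FPKM at some time point. At D3, 6 of the 22 had the peak described above (Cela3b, Prss1, Prss3, Try5, 2210010C04Rik and Gm5771), against 0.106% of all genes, and 9 of the 22 had their highest value there, against 2.72%. Prss3, 2210010C04Rik, Gm5771 and Gm10334 passed 1 FPKM only at D3, and 18 genes passed without that library. The filter thus fixed part of both counts, and nothing is read from them. Coding sequences of Prss1 and Prss3 are 96.3% identical, so fragments could be shared between such genes. Cela3b measured 1.59, 12.4 and 0.767 FPKM at D1, D3 and D5, Try5 2.01, 18.48 and 0.164, and Prss1 1.02, 9.11 and 0.163. Pnlip, the classical pancreatic lipase, did not exceed 0.73 FPKM at any time point. Ctrc and Reg2 were at or near 0 throughout.

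In the comparison of W3 to W8 with D1 to W2 (limma, Benjamini-Hochberg adjusted p under 0.01), 3 of the 22 other acinar products were higher, against 2.57% of all genes, and 1 was lower, against 28.9%, with a median difference of -0.11 beside -0.42 over all genes. With median-ratio scaling, 3 of 23 were higher, which is 13.0%, against 2092 of all 16795 genes, and 1 was lower, which is 4.35%, against 8.01%, so the share of higher genes was then close to that of all genes. Zg16, a zymogen granule lectin, rose from 0.104 to 2.02 FPKM between D1 and W2 to 28.3 at W3, 83.1 at W6 and 53.5 at W8 (log2 difference 5.18, SE 0.33, limma adjusted p = 2.74e-06). Try10, a trypsinogen whose coding sequence is 95.4% identical to that of Try4, measured 3.18, 35.1 and 32.9 FPKM at W3, W6 and W8 after 2.61 or less before (3.65, SE 0.59, limma adjusted p = 0.000496). Cela1, an elastase, measured 72.4, 96.0 and 85.5 after 12.04 to 46.1 between D1 and W2 (2.19, SE 0.58, limma adjusted p = 0.00708), but passed in 4 of 14 alternative settings only. Its limma adjusted p lay between 0.0126 and 0.0359 when D1, D3, D5, W1, W3, W6 or W8 was left out. Spink3, the trypsin inhibitor of the pancreas, fell from 16.48, 41.0, 38.3 and 63.1 at D1, D3, D5 and W1 and 1.48 at W2 to 0.51 or less from W3 on (difference -4.03, SE 0.75, limma adjusted p = 0.00101). Between birth and the fetal stage, Sycn (syncollin), Spink3 and Reg1 were higher after birth, 3 of 22 against 10.8% of all genes, and 0 were lower, against 30.6%, with a median difference of 0.62 beside -0.22. With median-ratio scaling, 4 of 23 were higher (17.4%), against 17.8% of all genes, and 0 were lower, against 14.6%. The share of higher genes was thus again close to that of all genes. Sycn was highest at W3, at 84.0 FPKM, and measured 47.9 and 35.3 at D1 and D3. Because time points stand in for replicates, these p-values measure the spread over ages and not over animals.

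**Figure D4:**
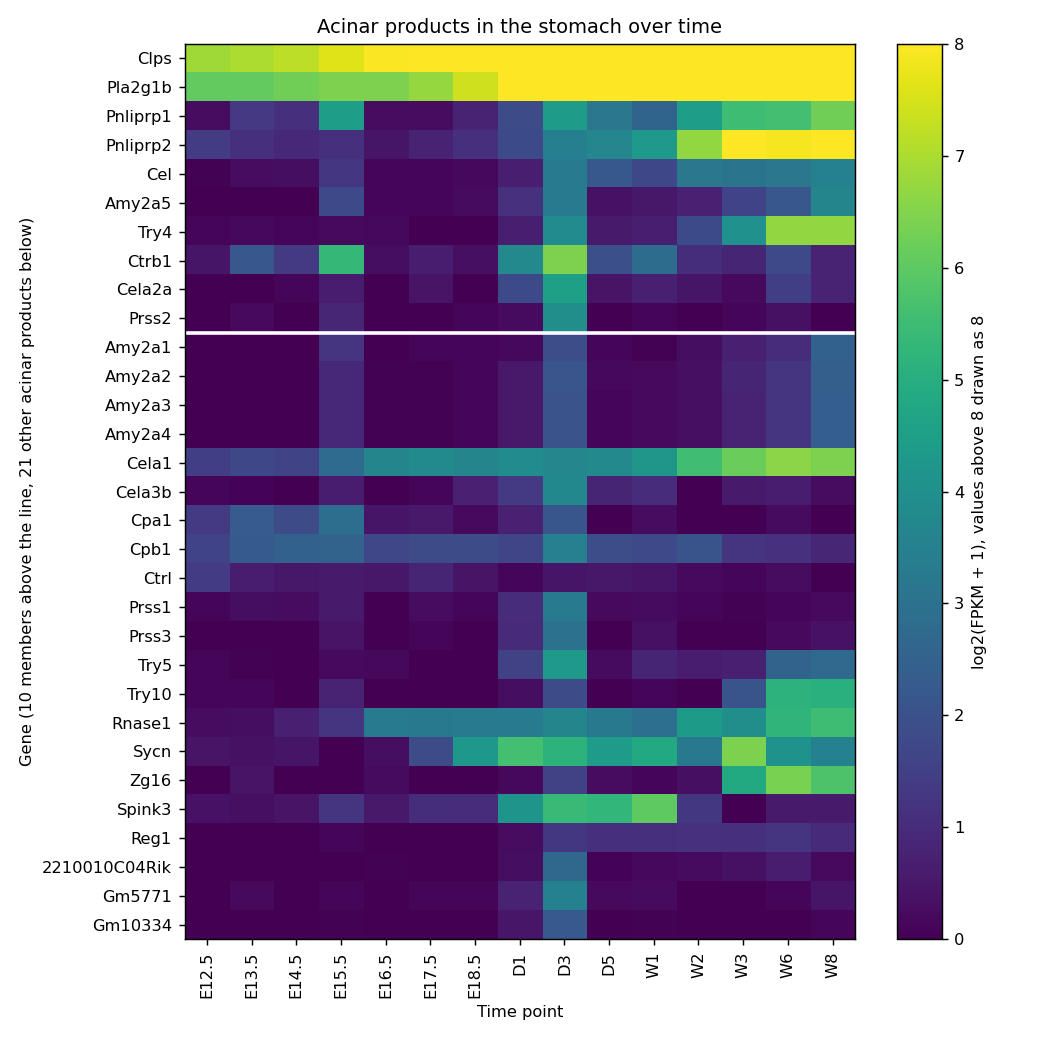
log2(FPKM + 1) of the 10 members (above the white line) and of 21 other acinar products that reached 1 FPKM (below it) at the 15 time points, with values above 8 drawn as 8. The D3 column is brighter than D1 and D5 in Try4, Ctrb1, Cela2a, Prss2, Cela3b, Prss1 and Try5, and Try4, Try10 and Zg16 are bright at W6 and W8.

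Regulators of acinar cells were at low levels. Ptf1a, a subunit of PTF1, was at 0.44 FPKM or less at the fetal time points, at 0.12 at D1, 0.38 at D3 and 0.99 at D5, and reached 3.35 at W8. Bhlha15 (Mist1), which organises secretory cells of both pancreas and stomach, was highest at W8 (13.6) and higher after birth than before (limma log2 difference 2.003, SE 0.49, adjusted p = 0.00348). Pdx1, a factor of pancreas and antrum, reached 5.24 at W3 and was higher from W3 on than between D1 and W2 (0.89, SE 0.22, limma adjusted p = 0.00525, and 0.0119 to 0.0233 without D5, W3, W6 or W8), and Rbpjl, the acinar partner of Ptf1a, reached 3.75 at W8. Nr5a2, the remaining regulator of the list, went the other way. It was highest at E14.5 (1.05 FPKM) and measured 0.036, 0.028 and 0.114 at W3, W6 and W8. No regulator of the list had the D3 peak.

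Marker lists of other tissues were read beside the members. Of 8 pancreatic islet markers, Ins1 and Ins2 did not exceed 0.14 and 0.35 FPKM, and the leading genes were Nkx6-1 (9.21 at E13.5), Ppy (3.48 at W2) and Iapp (1.08 at D3). Nkx6-1 was lower from W3 on (in 6 of 14 alternative settings, and not with median-ratio scaling), and Ppy was higher after birth than before, as was Iapp, in 6 of 12 alternative settings. The islet list summed to 9.502, 9.20 and 9.45 FPKM at D1, D3 and D5, a range in which D3 was not the highest, and to 5.64 to 9.51 at the fetal time points and 2.19 to 3.65 from W3 on. Most of the D3 sum came from Nkx6-1 (4.59) and Ppy (3.27), while Ins1 and Ins2 were at 0, so the sum mainly describes these leading genes. The 27 other acinar products summed to 99.4, 202 and 86.5 FPKM at D1, D3 and D5 and to 12.9, 34.4 and 25.2 at E14.5, E15.5 and E16.5. The part of pancreatic tissue in the D3 and E15.5 values was not tested.

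In the liver list D1 stood above D3 and D5, with sums of 1261, 257 and 206 FPKM at D1, D3 and D5 over 8 genes (Alb at 461, 25.8 and 3.1, Afp at 186, 22.3 and 4.2), and it was led by Apoa1, which reached 2270 at W6. Liver genes were also higher at W3 than at W6 and W8, with Alb at 65.4, 0.869 and 0.672 FPKM and Apoa2 at 29.5, 4.87 and 4.12. The intestinal list of 7 genes summed to 136, 186 and 97.4 FPKM at D1, D3 and D5, led by Fabp1 (151 at D3), Fabp2 (43.7 at W6) and Vil1 (27.05 at W3), with Cdx1 at 0.4 or less. Of the 6 salivary gland markers, Amy1 alone passed 1 FPKM (7.06 at W8), and Smr3a, Bpifa2 and Prol1 were at 0 in all libraries. Among 6 genes of starch and sugar digestion, Gaa (lysosomal glucosidase) was highest at E15.5 (41.2) and Lct (lactase) at D1 (3.47), and of the 3 genes tested Amy1 was higher and Gaa lower from W3 on than between D1 and W2. Gaa was not lower with median-ratio scaling. After birth, Amy1 and Lct of the starch list, Fabp1, Fabp2 and Alpi of the intestinal list and Apoa1 of the liver list were higher than before, and from W3 on Fabp2 and Apoa1 were higher.

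Other lipases and phospholipases did not share the large late rise of Clps and Pla2g1b. Of 17 genes tested, Lipg and Lpl were higher from W3 on, against 2.57% of all genes. Pnpla3, Pla2g6 and Pla2g15 were lower (Pla2g15 not with median-ratio scaling), against 28.9%. With that scaling, 2 of 17 were higher (11.8%), against 2092 of all 16795 genes, and 2 were lower (11.8%), against 8.01%. The share of higher genes was then close to that of all genes. After birth, 7 of 17 were higher than before, against 10.8% of all genes, with 0 lower. Of these 7, Pla2g16 kept its call in 3 of 14 alternative settings, and with median-ratio scaling 8 of 17 were higher against 17.8% of all genes. Lpl, lipoprotein lipase, rose to 96.3 FPKM at W8, Pla2g10, another secreted phospholipase, was highest at W6 (107), and Pla2g16 reached 60.9 at W6. Lipf, the gastric lipase gene, was listed at 0 in all 15 libraries.

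The time courses most like that of Clps belonged to Pgc (Pearson r = 0.992), Kcnj16 (0.989), Phyh (0.986), Fam134b (0.985) and Ly6e (0.985), calculated on log2(FPKM + 1) over the 15 time points among genes that reached 10 FPKM. Among the members, r with Clps was 0.992 for Pla2g1b, 0.955 for Pnliprp2, 0.890 for Try4, 0.856 for Cel, 0.823 for Pnliprp1 and 0.671 for Amy2a5, and it was 0.23 for Cela2a, -0.0046 for Prss2 and -0.10 for Ctrb1. With D3 and E15.5 left out, r with Clps was 0.953 for Pnliprp1, 0.930 for Cel, 0.886 for Amy2a5, 0.53 for Cela2a, 0.34 for Prss2 and 0.06 for Ctrb1, so the low values above rested in part on these libraries. Pgc encodes the pepsinogen C of chief cells, and its level went from 10781 FPKM at W2 to 86122 at W3, beside 7482 and 52594 for Clps. These values describe successive ages of 1 series and are no test.

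The courses most like that of Cela2a belonged to Gm5771 (r = 0.939), Cela3b (0.927), Try5 (0.878), Gm6548 (0.707) and Irf9 (0.685), of which the first 3 are acinar genes. Prss2 had r = 0.902 with Cela2a and Ctrb1 had r = 0.762. With D3 and E15.5 left out, 0 of these 5 genes remained among the 5 most like Cela2a, against 3 of 5 for Clps, so the likeness to Cela2a rested on these time points.

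Chief cell and surface cell genes were set beside the late members. Of 6 chief cell genes tested, Pgc (151321 FPKM at W8) and Chia1 were higher from W3 on, against 2.57% of all genes, and Cym (prochymosin, 117136 at W1) and Pga5 (pepsinogen, 27728 at W1) were lower, against 28.9%, the last of these in 4 of 14 alternative settings and not with median-ratio scaling. After birth, 5 of the 6 were higher than before, against 10.8% of all genes, or 17.8% with median-ratio scaling, under which it was again 5 of 6. Clps at W3 was thus high in a library in which Cym had gone from 106792 FPKM at W2 to 7718. Of 13 gastric epithelial markers, Muc5ac, Gkn1 and Gkn2 were higher from W3 on (against 2.57%) and 0 were lower (against 28.9%), with Gkn1 and Gkn2 called in 7 and 6 of 14 alternative settings, 10 of 13 were higher after birth than before (against 10.8%), and Tff1 (112832), Gkn2 (37678) and Gkn1 (30780) had their highest level at W6.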

How the data were processed

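Whole mouse stomachs were profiled by RNA sequencing at 15 time points, with 1 library each. The deposited tables give FPKM for each gene entry between a low and a high confidence bound, in the layout of Cufflinks gene tables. The labels name Bowtie 0.12.2 and the build GRCm38.p2, while the paper's methods name HISAT2 and StringTie, so the sources differ. Positions count from 1 here. Where a symbol had several entries, their FPKM were added. The read depth is not given in the files. The relative depth, taken from entries that hold a single fragment if the bounds are Poisson, was 0.702 to 1.17 of that at E12.5, and 1 fragment was a median of 0.0415 to 0.0679 FPKM. The bounds do not cover the spread between animals. For Pla2g1b they were wider than counting error alone would give. Read as Poisson, they would stand for 343.7 fragments at 67.1 FPKM (E12.5) but only 2598.5 at 65295 FPKM (W8). What else they hold was not tested.

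The members and gene lists were chosen with earlier results of these data known. The 16902 genes that reached 1 FPKM at any time point were analysed as log2(FPKM + 1), which understates changes of low genes. Stages were compared with limma 3.58.1 in R 4.3.3, with all 15 time points in 1 fit, Benjamini-Hochberg adjustment over all genes tested and a limit of 0.01. Differences between stages were not tested for the members. A gap rule for single values was applied to them as a description. On data simulated from these genes for the 3 stages, 89 of 100 genes shifted by 2 and 97 of 100 shifted by 3 (log2) were called, with 1 false call. The simulated noise was independent between genes and time points, and the shifted genes had a mean log2 level above 2. These rates may therefore not hold for lower genes or for changes that run through successive ages. Other steps used Python 3.11.15, NumPy 2.4.6, pandas 2.3.3, SciPy 1.17.1 and matplotlib 3.10.9. Coding sequence identities were calculated from the GENCODE annotation. The genes named were all members, the 3 with the highest maximal FPKM of each other list and the 5 most like Clps and Cela2a. Further genes, such as those with a call or a peak and those at or near 0, were named after their values were seen. Not all genes of the lists have their values reported here, though all are part of the counts and sums of their list. Alternatives were another pseudocount, median-ratio scaling, no filter, the first entry of a symbol, the phases of the paper and leaving out time points.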

Additional observations from a re-analysis of the deposited data

Results flagged for a closer look

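Among the fetal time points and among those from D1 to W2, single values were compared with the others of their stage by Dixon's gap ratio on log2(FPKM + 1) at the 95% level. Of 20 groups (10 members in 2 stages), 7 had a value far from the rest. Chance flags about 1 in 20 groups, but the members were chosen with these values known, so nothing is read from the count and the values are a description. Pnliprp1 was at 21.6 FPKM at E15.5, with the next fetal value at 1.503. Cel was at 1.43 at E15.5, with the next at 0.222. Amy2a5 was at 2.38 at E15.5, with the next at 0.189, and at 8.71 at D3, with the next value at 1.22. Ctrb1 was at 39.3 at E15.5, with the next at 3.47. Prss2 was at 0.811 at E15.5, with the next at 0.151, and at 14.4 at D3, with the next at 0.178. All 7 belong to the libraries of E15.5 and D3. Each of these libraries is the single transcriptome of its age, so animal and age cannot be told apart.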

How the results depend on the processing

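No paired analysis was possible, since each time point is 1 library and whole stomachs of different animals were taken at each age. The number of members with a higher stage mean, 7 for W3 to W8 and 10 for D1 to W2, stayed within 1.5 times under all alternatives run. Of 280 recomputed member differences, 254 moved by less than 1 SD and 5 changed sign. Part of the 280 could not move. Dropping the filter changes no member difference, and the first entry of a symbol can change only those of Clps. Leaving out W3, W6 or W8 cannot change the difference between D1 to W2 and the fetal stage. The count of 254 is therefore no measure of stability. The sign changes were in the late differences of Cela2a (0.30 without D1 and D3) and Prss2 (0.13 without D1 and D3, 0.08 without D3). The others were in the difference of Prss2 between D1 to W2 and the fetal stage (-0.13 and -0.08).

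Counts over all genes depended on scaling. With median-ratio scaling, 2092 genes were higher and 1346 lower from W3 on (435 and 4877 without it), and 2986 higher and 2452 lower after birth (1820 and 5170), with a median difference of -0.01 and 0.02. Without D1 and D3, chosen after seeing the data, the counts were 167 and 1723 for W3 to W8, and 1211 and 3384 after birth. When each of the 8 postnatal time points was left out in turn (0 of the fetal ones were), they ranged from 169 to 573 higher and 1359 to 4829 lower from W3 on, and from 1282 to 1796 higher and 3707 to 5195 lower after birth. The late counts were lowest without W6 (169 and 1359) and low without W8 (273 and 3014), D3 (302 and 3422) and D5 (313 and 3396). With a pseudocount of 0.1, 2 other acinar products were lower from W3 on instead of 1. Cym lost its call from W3 on without W6 (limma adjusted p = 0.0182) and without W8 (0.014), and Lpl without W6 (0.0105). Values under about 0.1 FPKM rest on few fragments.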
